A study of Homo sapiens with 23 samples.

Results

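BRD2 intervals that lie on H3K36me3 were collected from chromatin immunoprecipitation followed by sequencing (ChIP-seq) in NCI-H23 cells, a cell line grown from a non-small cell lung cancer. A BRD2 interval is a stretch called as a peak in both BRD2 lists, and an H3K36me3 interval one called in both H3K36me3 lists. Of 18087 BRD2 intervals, 407 shared at least 1 bp with an H3K36me3 interval, which is 2.25% of them. The remaining 17680 BRD2 intervals are the comparison throughout and are called the other BRD2 intervals. The 407 intervals overlapped 345 of 148390 H3K36me3 intervals, or 0.232%. The intervals were chosen by their BRD2 and H3K36me3 peak calls, so every BRD2 or H3K36me3 value below describes the choice and supports nothing. The values of H3K4me3, H3K4me1, H3K9me3, H3K27me3 and the acetyl marks did not enter it.

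The series holds 23 samples of this line, of which 22 libraries have a peak list: 2 for each of 11 targets, namely BRD2, 5 histone acetylation marks (H4K5acK8ac, H4K5ac, H4K8ac, H4K12ac and H3K27ac) and 5 methylation marks (H3K4me1, H3K4me3, H3K36me3, H3K9me3 and H3K27me3). H4K5acK8ac is the histone H4 tail acetylated at both of the named lysines. Each group used here is the pair of libraries of one target, and no other condition is named in the sample labels. The treatment protocol mentions JQ1, a small molecule that displaces BET proteins from acetylated chromatin, or its solvent DMSO, but no label says which library received which. The labels do not say whether the paired libraries came from separate cultures.

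BRD2 belongs to the BET family, whose paired bromodomains bind acetylated lysines on histone tails, mostly on histone H4. H3K36me3 is laid down by SETD2, which travels with elongating RNA polymerase II, and so marks the bodies of transcribed genes rather than their starts. H3K4me3 marks active promoters, H3K4me1 with H3K27ac marks active enhancers, and H3K9me3 and H3K27me3 are marks of 2 kinds of repressed chromatin. A place that carries both BRD2 and H3K36me3 therefore joins a protein known from promoters and enhancers with a mark known from gene bodies.

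The 22 lists held 2889028 peaks. Sequencing depth is unknown, since the lists give no read numbers. The BRD2 lists had 56830 and 45730 peaks, of which 64.7% and 28.1% had a q-value above 0.05, against 0.367% and 0.430% of the 148323 and 146180 H3K36me3 peaks. Many BRD2 peaks were therefore weak. With 2 libraries against 2, no exact permutation test can reach 0.05, and peaks are not replicates. Values are therefore given per list, shares with a 95% Wilson interval, and no p-value was computed. These intervals cover counting error only and treat neighbouring intervals as independent. They are not: joined across gaps of up to 10 kb, the 407 intervals formed 260 loci, of which 188 held 1 interval and 72 held the other 219.

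The 407 intervals were of different kinds. An interval was called promoter-like when H3K4me3 was called there in both lists, and active enhancer-like when H3K4me3 was called in neither list and H3K4me1 and H3K27ac in both. Of the BRD2 intervals on H3K36me3, 176 were promoter-like, or 43.2% (38.5% to 48.1%), where all BRD2 intervals gave 83.1% and the other BRD2 intervals 84.0%. Active enhancer-like intervals numbered 170, or 41.8% (37.1% to 46.6%), beside 11.5% of all BRD2 intervals and 10.8% of the others. Neither description held for 54 intervals, or 13.3% (10.3% to 16.9%), beside 3.86% of all BRD2 intervals. In the last 7 intervals H3K4me3 was called in 1 list, beside 1.48% of all BRD2 intervals. Seen from the other direction, H3K36me3 lay on 1.17% of the promoter-like BRD2 intervals (1.01% to 1.36%), on 8.15% of the active enhancer-like ones (7.05% to 9.41%) and on 7.74% of those that were neither (5.98% to 9.96%). The difference in the active enhancer-like share, 30.9 percentage points, was 9.91 with list 1 of every target alone and 21.0 with list 2 alone.

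H3K4me3 itself was the mark with the widest gap. List 1 of H3K4me3 covered 45.0% of the BRD2 intervals on H3K36me3 and 84.8% of the others, and list 2 covered 43.2% and 84.8%. The paired lists thus gave nearly the same shares, and the gap between the sets was many times the gap between lists. H3K4me1 went the other way: 66.1% of the intervals on H3K36me3 had it in both lists (61.4% to 70.5%), beside 39.3% of all BRD2 intervals and 38.7% of the others. In list 1 of H3K4me1 the shares were 70.3% and 39.4%, and in list 2 they were 72.7% and 53.8%. The H3K4me1 lists disagreed more about the other BRD2 intervals than about those on H3K36me3, and in each list the share was higher on H3K36me3. With BRD2, H3K36me3 and the marks taken from list 1 alone, 4708 BRD2 peaks lay on H3K36me3, from a list of 56830. With list 2 alone 3195 did, from a list of 45730. Both shares were above the 2.25% of BRD2 intervals called in both lists, so that share rests on the use of both lists. The H3K4me1 difference moved from 27.4 to 6.74 percentage points with list 1 alone and to 10.9 with list 2 alone. The H3K4me3 difference was then -23.4 and -32.7 against -40.8.

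**Figure D1:**
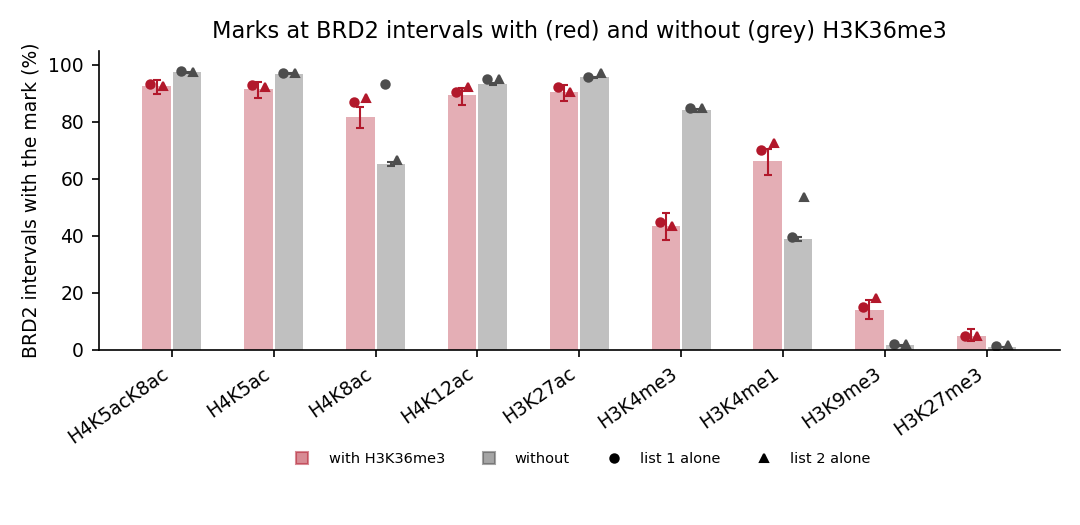
Share of BRD2 intervals (%, vertical axis) that carry each of 9 histone marks (horizontal axis), for the 407 intervals on H3K36me3 in red and the 17680 others in grey. Bars count marks called in both lists, with 95% Wilson intervals, and circles and triangles stand for list 1 and list 2 alone; H3K4me3 is at 43.2% against 84.0%, and the grey circle of H4K8ac stands far above its bar.

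Acetylation was called at most of these intervals, which is where a BET protein is known to bind. H4K5acK8ac lay on 92.6% of them in both lists (89.7% to 94.8%), beside 97.3% of all BRD2 intervals. H4K5ac lay on 91.6% beside 96.8%, H4K12ac on 89.4% beside 93.1% and H3K27ac on 90.4% beside 95.5%. These 4 marks were each a few percentage points less frequent on H3K36me3, in both of their lists, and the size rests on the use of both lists. When intervals and marks were taken from list 1 of every target alone, H4K5acK8ac differed by -20.4 percentage points, H4K5ac by -19.8, H4K12ac by -19.4 and H3K27ac by 0.562. From list 2 alone the differences were -16.8, -15.1, -14.8 and -9.33. H4K8ac lay on 81.8% in both lists, beside 65.5% of all BRD2 intervals, but its lists gave opposite directions. In list 1, which is the longer at 224726 peaks, 87.0% of the intervals on H3K36me3 and 93.2% of the others had it. In list 2, with 116852 peaks, the shares were 88.5% and 66.6%. No direction can be given for H4K8ac over all intervals.

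Counting marks per interval gave a large majority with all 5 acetyl marks, a small number with none in both lists, and others between. All 5 acetyl marks were present in both lists at 326 of the 407 intervals, or 80.1%, beside 63.8% of all BRD2 intervals. H4K8ac list 2 was the only acetyl list with a higher share on H3K36me3, by 21.9 percentage points. Every other acetyl list, H4K8ac list 1 among them, had a lower share there, so the gap is no general gain of acetylation. Of the rest of the 407, 37 intervals had 4 of the marks, 7 had 3, 4 had 2 and 8 had 1. No acetyl mark was present in both lists at 25 intervals, or 6.14%, beside 2.33% of all BRD2 intervals. These 25 were all among the 54 that were neither promoter-like nor active enhancer-like. For the active enhancer-like class this follows from the definition, which requires H3K27ac in both lists. Among promoter-like intervals 153 of 176 had all 5, and 9255 of 14860 others did. In that class too H4K8ac list 2 had the widest acetyl difference, 25.6 percentage points, against 0.401 in list 1. Among active enhancer-like intervals 156 of 170 had all 5, and 1686 of 1915 others did, which are nearly the same share.

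Within the promoter-like and active enhancer-like classes the sets differed little in how often the acetyl marks other than H4K8ac were called. For H3K27ac in the active enhancer-like class this was fixed by the definition and shows nothing. H4K5acK8ac lay on 176 of the 176 promoter-like intervals on H3K36me3 and on 99.9% of the 14860 others. On active enhancer-like intervals the shares were 99.4% and 99.5%. The H4K5acK8ac gap over all intervals was thus not seen within either of these classes, where nearly every interval had the mark. Among the intervals of neither class acetylation was more frequent on H3K36me3 for most marks, but with 54 intervals and lists that differed. H3K27ac lay on 29.6% in both lists (19.1% to 42.8%), against 12.1% of the others. Most of that gap was in list 1, with 40.7% and 15.5%, while list 2 gave 29.6% and 26.7%. H4K5acK8ac lay on 46.3% in both lists (33.7% to 59.4%) against 33.5%, with 51.9% and 46.6% in list 1 and 46.3% and 35.1% in list 2. The class leaves out intervals with both H3K27ac and H3K4me1 in both lists, which bears on its H3K27ac share. H4K8ac differed within the promoter-like class in list 2 only, with 89.8% on H3K36me3 and 64.2% elsewhere, while list 1 gave 95.5% and 95.1%. H3K4me1 differed within the promoter-like class as well: 51.7% of those on H3K36me3 had it in both lists (44.4% to 59.0%) and 30.9% of the others.

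The strength of the acetyl peaks differed in both of these classes, and mostly the other way at intervals of neither class. For each interval the fold enrichment of the strongest overlapping peak was taken, which is the authors' ratio of signal to local background and is used only to compare intervals within one list. At promoter-like intervals on H3K36me3 the median fold enrichment of H4K5acK8ac was 45.6 in list 1 and 34.9 in list 2, and at the other promoter-like intervals 24.2 and 22.5. H4K5ac had medians of 18.1 and 17.6 on H3K36me3 and of 10.4 and 10.1 elsewhere. H3K27ac had medians of 58.5 and 57.0 on H3K36me3 and of 42.7 and 40.2 elsewhere. Acetyl peaks were thus stronger on H3K36me3 in 10 of the 10 acetyl lists, by ratios of medians from 1.36 to 1.88.

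Active enhancer-like intervals had the same direction in 10 of 10 acetyl lists, with ratios from 1.05 to 1.54. H3K27ac had a median of 53.1 on H3K36me3 and 34.5 elsewhere in list 1, and 52.2 and 41.3 in list 2. H4K5acK8ac had medians of 41.1 and 27.5 in list 1 and of 33.3 and 26.0 in list 2. H4K8ac had the smallest difference, with 6.30 and 5.98 in list 1 and 5.29 and 4.95 in list 2. H3K4me3 went the other way at promoter-like intervals: its peaks had a median of 65.4 on H3K36me3 and 80.6 elsewhere in list 1, and 74.4 and 90.2 in list 2. The quartiles of the sets overlapped for this mark, from 38.4 to 86.9 on H3K36me3 and from 60.1 to 95.2 elsewhere in list 1. At the intervals of neither class the acetyl peaks that were present were mostly weaker on H3K36me3, with at most 31 intervals behind a median. H4K5acK8ac had medians of 4.35 and 8.90 in list 1 and of 2.28 and 15.8 in list 2, and H3K27ac of 5.58 and 7.40 in list 1. H4K5ac had medians of 2.60 and 8.25 in list 1 but 8.81 and 8.25 in list 2.

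**Figure D2:**
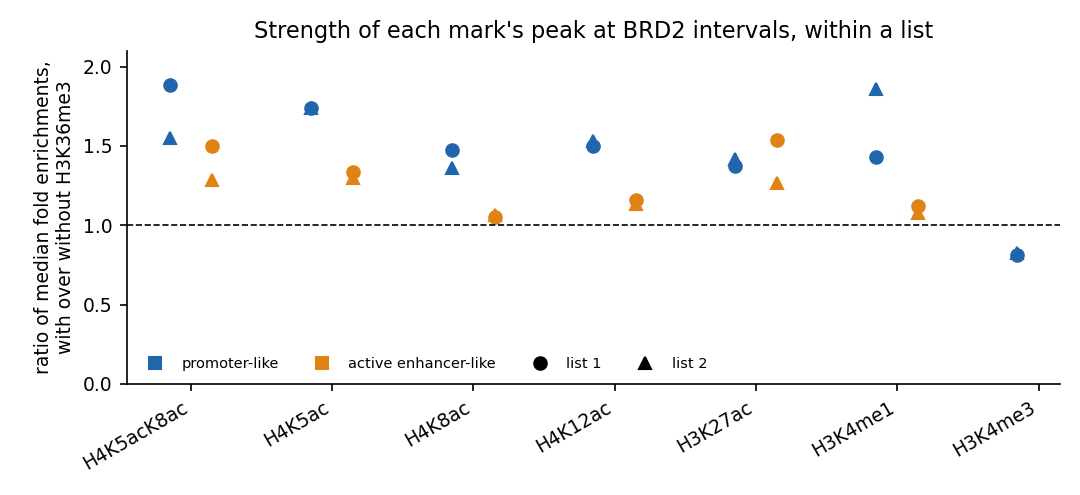
Ratio of the median fold enrichment of a mark's peaks at BRD2 intervals on H3K36me3 to that at the other BRD2 intervals of the same class (vertical axis, linear from 0), for 7 marks (horizontal axis), with circles for list 1 and triangles for list 2. Every acetyl point lies above the dashed line at 1, from 1.05 to 1.88, and both H3K4me3 points lie below it, at 0.811 and 0.824.

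The promoter-like intervals sat in broad H3K4me3 stretches. The H3K4me3 interval around them had a median width of 4402 bp (quartiles 2869 and 6233 bp), against 2381 bp (1774 and 3197 bp) around the other promoter-like BRD2 intervals. The centre of the BRD2 interval lay a median of 1219 bp from the nearer edge of that H3K4me3 stretch, against 746 bp. Within 500 bp of the edge lay 27.3% of those on H3K36me3 and 28.4% of the others, so the position was not generally at the margin. In 169 of the 176 intervals some bases carried BRD2, H3K4me3 and H3K36me3 calls together. The 176 intervals lay in 134 H3K4me3 intervals. H3K36me3 overlapped 14.0% of all 21277 H3K4me3 intervals, 22.5% of those that hold BRD2 and 6.33% of those that do not.

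Neighbouring H3K36me3 was read from the 10 kb on either side of each interval and describes the choice. H3K36me3 intervals covered a mean of 38.4% of these flanks beside intervals on H3K36me3 and 18.3% beside the others, a difference of 20.2 percentage points that was 45.5 with list 1 of each target alone and 38.3 with list 2 alone. Promoter-like intervals on H3K36me3 were lopsided: the fuller flank was covered by a median of 68.7% and the emptier one by 13.4%, against 30.3% and 0 for the other promoter-like intervals. At least 50% of 1 flank alone was covered in 94 of the 176, and of both flanks in 25. Active enhancer-like intervals were less one-sided, with medians of 37.0% and 14.5%, and 0 and 0 for the others of that class. At least 50% of both flanks was covered in 47 of the 170 and of 1 flank in 30. In 2 of the 407 intervals neither flank held any H3K36me3.

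The overlap itself was mostly a full cover or a touch at one end. The median overlap was 159 bp, or 93.3% of the BRD2 interval. H3K36me3 covered the whole of 188 intervals, one end only of 193, an inner stretch only of 16 and both ends without the middle of 10. Among promoter-like intervals 98 of 176 had H3K36me3 at one end only, and among the 54 that were neither class 34 were wholly covered. The other BRD2 intervals were not far away: their median distance to H3K36me3 was 3424 bp, with 2874.5 bp for promoter-like and 12329 bp for active enhancer-like ones, and 13.3% of them lay within 1 kb.

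H3K27ac and H3K4me1 spread further around the intervals on H3K36me3, and neither spread was used to choose them. With the fuller H3K36me3 side to the right, H3K27ac covered a mean of 65.2% of the bases in the 500 bp bin centred 5250 bp to the right of promoter-like intervals on H3K36me3, and 14.3% beside the others. On the left, at -5250 bp, the means were 49.1% and 10.9%. H3K4me1 covered 62.1% at 5250 bp on the right and 40.4% on the left, against 20.8% and 11.9% beside the others. H3K4me3 had dropped to 19.0% on the right and 18.8% on the left by then, against 5.32% and 4.33%. Around active enhancer-like intervals H3K27ac covered 69.4% on the right and 75.2% on the left at that distance, against 42.1% and 36.6%. H3K27ac thus reached further on both sides in both classes. These means count every interval, so a stretch around a locus with several intervals enters more than once. They were not taken with each locus counted once.

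**Figure D3:**
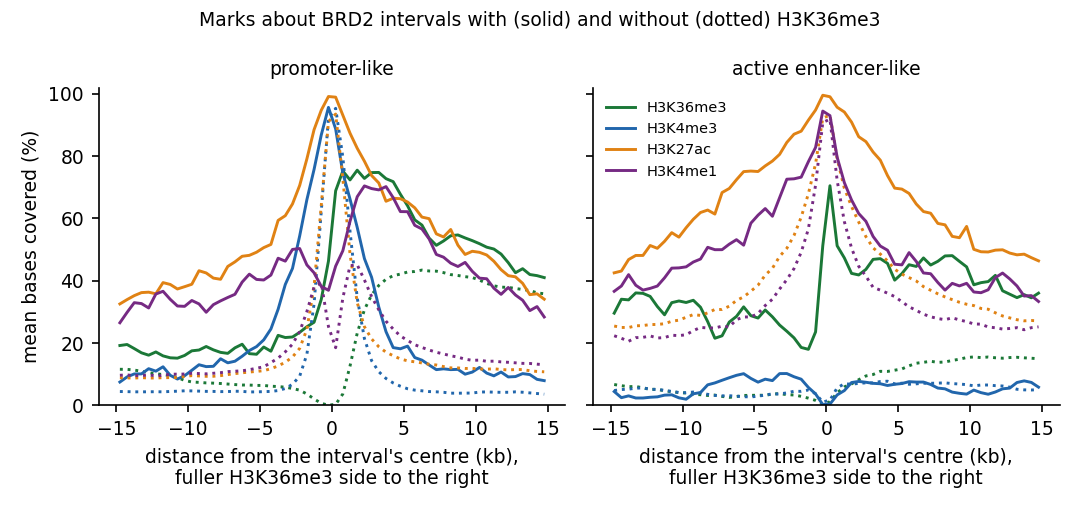
Mean share of bases called in both lists (%, vertical axis) for 4 marks in 500 bp bins up to 15 kb from the centre of BRD2 intervals (horizontal axis, kb), turned so that the flank with more H3K36me3 is on the right. Solid lines are intervals on H3K36me3 (176 promoter-like, 170 active enhancer-like) and dotted lines the others; at promoter-like intervals H3K36me3 climbs from 46.3% to 72.3% between the bins at -250 and 1250 bp while H3K4me3 is still at 66.2%.

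Over all BRD2 intervals, those on H3K36me3 had a lower median width and BRD2 fold enrichment, and the medians were closer within a class. Their median width was 215 bp (quartiles 159 and 456 bp), against 277 bp (179 and 444 bp) for the others. Within promoter-like intervals the medians were 287.5 and 297 bp, within active enhancer-like ones 191.5 and 198 bp, and within those of neither class 160.5 and 159 bp. The means of promoter-like intervals went the other way, 524 bp on H3K36me3 and 373 bp elsewhere. So did the width of the deposited peaks in list 2, with medians of 692 and 668 bp over all intervals and of 1004 and 695.5 bp over promoter-like ones, while in list 1 they were 264 and 316 bp over all intervals. Median BRD2 fold enrichment was 3.25 on H3K36me3 and 3.81 elsewhere in list 1, and 5.48 and 7.67 in list 2. Within promoter-like intervals it was 3.60 and 3.97 in list 1 and 7.37 and 8.21 in list 2. The share on H3K36me3 was 3.29% in the narrowest width quartile (1 to 178 bp) and 2.28% in the widest (445 to 4064 bp). Within the narrowest quartile 32.0% of the intervals on H3K36me3 and 70.8% of the others had H3K4me3, and in the widest 67.0% and 92.3%.

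The share of BRD2 intervals on H3K36me3 was highest among the weakest BRD2 intervals and lowest from 5 to 10 on the scale of BRD2 strength used here. Each BRD2 interval was placed by the lower of its 2 deposited −log10 q values, where 1.3 stands for a q of about 0.05 and higher is stronger. H3K36me3 lay on 3.42% of those below 1.3 (2.96% to 3.94%), on 2.08% from 1.3 to 3, on 1.55% from 3 to 5, on 0.737% from 5 to 10 (0.478% to 1.14%) and on 2.71% of those at 10 or more (2.09% to 3.51%). The interval of the strongest bin holds the 2.25% of all BRD2 intervals, so its share did not stand apart from that value. The counts of intervals on H3K36me3 in these bins were 182, 101, 49, 20 and 55. The weak end was mixed, with 94 active enhancer-like, 56 promoter-like and 30 of neither class below 1.3. The strong end held 43 promoter-like intervals, 11 of neither class and 0 of the 170 active enhancer-like ones, where 28 of the 1915 other active enhancer-like intervals reached 10.

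**Figure D4:**
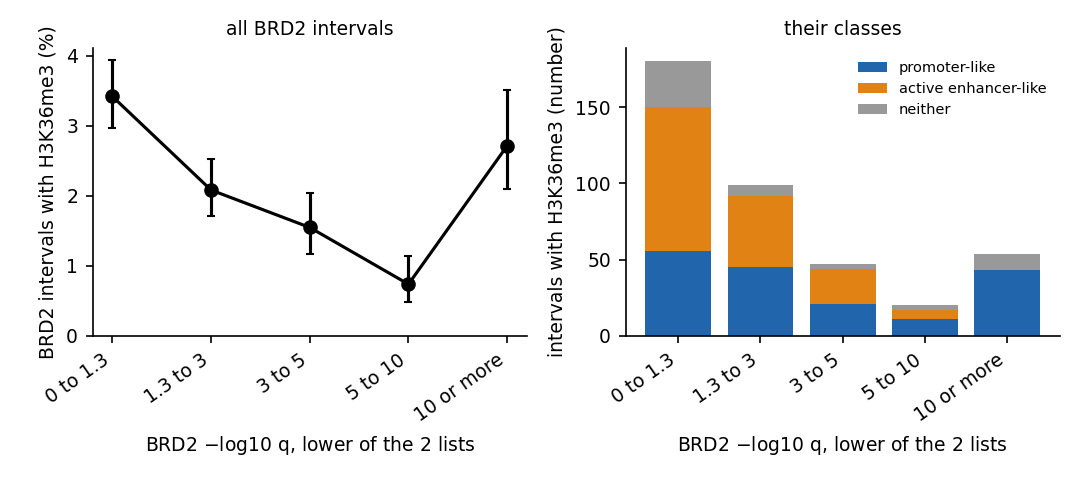
Left, share of BRD2 intervals that lie on H3K36me3 (%, vertical axis) by the lower deposited BRD2 −log10 q of the 2 lists (horizontal axis), with 95% Wilson intervals; the share falls from 3.42% to 0.737% and is 2.71% in the last bin. Right, the number of intervals on H3K36me3 in each bin by class, without the 7 that had H3K4me3 in 1 list; the last bin holds 43 promoter-like, 0 active enhancer-like and 11 of neither class.

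The 43 strong promoter-like intervals lay in 43 separate loci. Their median BRD2 fold enrichment was 11.3 in list 1 and 25.4 in list 2, against 8.17 and 16.8 in the 1916 other promoter-like intervals of that strength. They were wide, with a median of 1031 bp against 656 bp, and H3K36me3 covered a median of 20.9% of them. In 40 of the 43 it touched one end only. The fuller flank was covered by a median of 70.3% and the emptier one by 0, with 25 of 43 at 0. H4K8ac was called in both lists at 43 of 43, beside 88.6% of the others of that strength, and H3K4me1 at 32.6% beside 35.6%. No direction is read from the H4K8ac value, since its shares per list were not taken here and the 43 were wider. Among all other BRD2 intervals H4K8ac lay on 48.5% in the narrowest width quartile and on 88.3% in the widest. The 133 promoter-like intervals below 10 were unlike the 43 strong ones: they lay in 88 loci, had a median width of 221 bp, and 69 were wholly covered by H3K36me3. H3K4me1 was called at 57.9% of the 133, beside 30.2% of the others below 10. The broad H3K4me3 stretch was common to both, with medians of 4116 and 4744 bp around them.

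The 5 promoter-like intervals with the best mean rank of BRD2 fold enrichment all had the 5 acetyl marks in both lists. Coordinates are 1-based in hg19. The interval chr2:3622195-3623806, 1612 bp wide, had a BRD2 fold enrichment of 26.5 in list 1 and 56.9 in list 2. H3K36me3 overlapped 260 bp of it and covered all of the right flank and none of the left. Its H4K5acK8ac peaks had a fold enrichment of 54.5 and 36.4 and its H3K4me3 peaks of 71.0 and 80.1. The interval chr20:37063255-37064161 had BRD2 values of 20.1 and 44.7, with H3K36me3 over all of the left flank and none of the right. The interval chr2:217362931-217364264 had BRD2 values of 17.2 and 57.9, with H3K36me3 over 66.0% of the right flank and none of the left. The interval chr1:24018250-24019183 had BRD2 values of 17.7 and 45.9, with H3K36me3 over all of the right flank and none of the left. These 4 have one empty flank each. At chr16:89626582-89627990, with BRD2 values of 21.6 and 36.6, the left flank was covered by 64.0% and the right by 30.1%. H3K9me3 was called in no list at any of the 5.

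The 5 best-ranked intervals without H3K4me3 were all active enhancer-like and far weaker for BRD2. The interval chr13:80510110-80510823 had BRD2 fold enrichments of 5.11 and 16.1, H3K27ac of 77.3 and 73.2 and H4K5acK8ac of 52.6 and 41.9. H3K36me3 overlapped 214 of its 714 bp and covered 4.95% of the fuller flank. The interval chr22:30605347-30606153 had BRD2 values of 4.91 and 11.9 and H3K27ac values of 71.8 and 66.6. The interval chr5:58183519-58184591 had BRD2 values of 5.40 and 9.17 and H3K27ac values of 84.6 and 82.1. One interval of 264 bp on chromosome 8 had BRD2 values of 7.21 and 7.11 and H3K27ac values of 84.9 and 82.2. The interval chr17:57904912-57905419 had BRD2 values of 4.29 and 10.7, and its fuller flank was covered by 73.0%. The other 4 had at most 27.4% of a flank covered, so their H3K36me3 was local. Their H3K36me3 peaks were weak too, with fold enrichments from 2.49 to 5.26, where the promoter-like 5 had 8.86 to 19.9.

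H3K9me3, the mark of constitutive heterochromatin, was more frequent on H3K36me3 than elsewhere. It was called in both lists at 56 of the 407 intervals, or 13.8% (10.8% to 17.4%), beside 1.8% of all BRD2 intervals and 1.52% of the others. In list 1 of H3K9me3 the shares were 15.0% and 1.76%, and in list 2 they were 18.2% and 2.00%. The difference of 12.2 percentage points was -0.292 with list 1 of every target alone and 5.96 with list 2 alone, and 8.97 when H3K36me3 of either list sufficed. Counted by H3K36me3 interval instead, 18.3% of the 345 with BRD2 had H3K9me3 and 5.94% of those without BRD2, which were narrower. The largest group by number was the 27 of 54 intervals of neither class, beside 205 of 644 others of that kind. Among active enhancer-like intervals 23 of 170 had it, or 13.5% (9.19% to 19.5%), and 10 of 1915 others, or 0.522%. Those 23 lay in 21 loci on 13 chromosomes, and 22 of them carried all 5 acetyl marks. Promoter-like intervals had it at 5 of 176 and 51 of 14860. The H3K9me3 peaks at active enhancer-like intervals were weak in both sets, with median fold enrichments of 3.47 and 3.48 in list 1 and 3.12 and 2.99 in list 2.

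H3K27me3, the Polycomb mark, was called in both lists at 19 intervals on H3K36me3, or 4.67% (3.01% to 7.18%), beside 0.962% of all BRD2 intervals. The difference of 3.79 percentage points turned to -7.80 with list 1 of every target alone, to -6.13 with list 2 alone, and to -0.362 without the BRD2 intervals that carry H3K9me3. All 19 also had H3K9me3. Of the others, 155 had H3K27me3 and 92 of these had H3K9me3 as well. Of the 407 intervals, 3 carried all 9 other marks, and 2 of the 17680 others did. Active and repressive marks were thus called at the same interval in some cases, and whether they share a molecule cannot be read from peak lists. The part of sequence that collects reads in every library in these calls was not tested. Of the 11 strong intervals of neither class, all 11 had both H3K9me3 and H3K27me3, they lay in 6 loci, and their BRD2 fold enrichments were low for their q, from 2.09 to 3.37 in list 1 and from 4.11 to 6.24 in list 2.

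The best-ranked intervals with H3K9me3 did not share a class. The interval chr2:120980327-120981067 was promoter-like, with BRD2 fold enrichments of 5.94 and 20.4, H3K4me3 of 82.3 and 92.1 and H3K9me3 of 4.68 and 3.94. The interval chr12:14412861-14414243 was promoter-like by weak H3K4me3 peaks of 3.37 and 2.86, with BRD2 values of 5.27 and 13.9 and H3K9me3 of 5.55 and 3.96. The interval chr18:3664016-3664231 was of neither class because H3K4me1 was called in list 2 only. Its BRD2 values were 2.93 and 14.1, its H3K27ac values 62.8 and 49.9 and its H3K9me3 values 4.21 and 3.99. All 3 carried the 5 acetyl marks.

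The intervals of neither class ranged from bare to fully acetylated. Of the 54, 25 had no acetyl mark in both lists, 17 had none in any list, and 11 had all 5. Of the 644 others of this class, 394 had no acetyl mark in both lists and 54 had all 5, so those on H3K36me3 were bare less often. H3K27ac was called in both lists at 16 and H3K4me1 at 2. Of the 25 with no acetyl mark in both lists, 4 had H3K9me3. The 3 intervals with the most flanking H3K36me3 were of this class. At chr21:44277465-44277489, 25 bp wide, H3K36me3 covered 97.1% and 98.2% of the flanks and no acetyl mark was called in both lists. An interval of 157 bp on chromosome 8 had flanks covered by 96.2% and 99.0% and no other mark in any list. At chr17:73228959-73229118 the flanks were covered by 100% and 93.4%, and H4K8ac was the only other mark. BRD2 was weak at all 3, with fold enrichments from 2.90 to 3.97 in list 1 and from 3.04 to 3.28 in list 2.

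The loci with the most intervals show the clustered end. The largest, chr22:30631565-30650825, held 12 intervals on H3K36me3 among 23 BRD2 intervals over 19261 bp. Of the 12, 10 were promoter-like, 1 was active enhancer-like and 1 had H3K4me3 in 1 list. All 12 carried the 5 acetyl marks and H3K4me1, and none carried H3K9me3 or H3K27me3. The 23 BRD2 intervals of the locus were alike in this, with each acetyl mark at 22 or 23, H3K4me1 at 21 and no H3K9me3 or H3K27me3. H3K36me3 covered 41.5% of the locus, and BRD2 fold enrichment ranged from 2.80 to 4.86 in list 1 and from 4.92 to 9.55 in list 2. The second, chr18:3590461-3608836, held 10 intervals, 4 promoter-like and 6 active enhancer-like, of which 2 had H3K9me3. The third, chr6:151360864-151383093, held 9, all active enhancer-like, with H3K36me3 over 63.6% of it and 1 with H3K9me3.

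**Figure D5:**
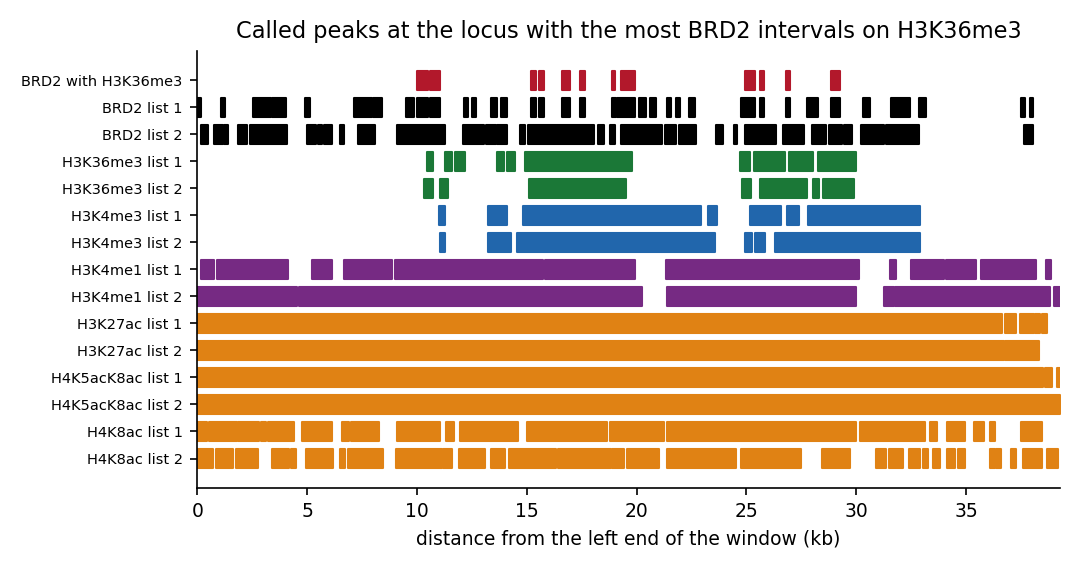
Called peaks of 7 targets (rows, with both lists) across the locus with the most BRD2 intervals on H3K36me3 and 10 kb on either side (horizontal axis, kb from the left end of the window), with those 12 intervals in the top row. H3K27ac and H4K5acK8ac are called over nearly the whole window, H3K4me1 over most of it, and H3K36me3 and H3K4me3 overlap in its middle.

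Chromosomes contributed unevenly. On chromosome 18, 24 of 321 BRD2 intervals lay on H3K36me3, or 7.48% (5.08% to 10.9%), but in 7 loci only. Chromosome 22 followed with 21 of 462, or 4.55%, in 8 loci, and chromosome 20 with 29 of 727, or 3.99%, in 18 loci. Chromosome 14 had the lowest share of those with any, 4 of 571 or 0.701%. Chromosome Y had 0 of 38 (Wilson interval 0 to 9.18%). H3K9me3 was called at 9 of the 24 intervals on chromosome 18, in 5 loci, and at 9 of the 27 on chromosome 10, in 6 loci.

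From the side of H3K36me3, the 345 H3K36me3 intervals with BRD2 were an acetylated minority. Their median width was 843 bp, against 484 bp for the 148045 without BRD2, and width raises the chance of any overlap. H4K5acK8ac was called in both lists at 91.0% of those with BRD2 and 3.53% of those without. For H3K27ac the shares were 89.3% and 11.7%, for H3K4me1 80.0% and 17.5%, and for H3K4me3 40.3% and 2.19%. The first set was picked by BRD2, and 97.3% of all BRD2 intervals had H4K5acK8ac and 95.5% had H3K27ac. Its high acetyl shares were thus largely fixed by that choice and say nothing particular about H3K36me3.

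The smallest overlaps were of 2 bp, at chr9:136214406-136215619 and chr17:27047025-27047711, both promoter-like with BRD2 fold enrichments of 13.3 and 25.2 and of 6.99 and 23.8, and at chr3:108165339-108165340, where BRD2 itself was 2 bp wide. Just outside lay chr12:120666945-120667168 with a gap of 3 bp and BRD2 values of 2.84 and 7.98. Next came chr14:68609647-68609958 with a gap of 4 bp and BRD2 values of 3.45 and 6.03. The interval chr6:42988912-42989820 had a gap of 5 bp and BRD2 values of 3.62 and 8.59. Each of these 3 had H3K36me3 called at it in 1 list.

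The composition was different among strong peaks. With BRD2 and H3K36me3 peaks held to a −log10 q of at least 5, 65 of 4740 BRD2 intervals lay on H3K36me3, or 1.37%, in 58 loci. Of these, 49 were promoter-like, 2 active enhancer-like and 13 of neither class, so that promoter-like intervals made up 75.4% of them and 94.5% of the others. H3K9me3 was called at 18 of the 65 and H3K27me3 at 17. The H3K9me3 difference from the other strong BRD2 intervals grew from 12.2 to 26.2 percentage points, and that of H3K27me3 from 3.79 to 25.3. The H3K27ac difference went from -5.20 to -15.5. The lower H3K4me3 share and the higher H3K9me3 share on H3K36me3 were present among the strong peaks too. The H3K9me3 and H3K27me3 differences rest on few intervals, whose loci were not counted. In the main set the 11 intervals of neither class at 10 or more all had both marks and lay in 6 loci. The part of such loci in these differences was not tested. At most 2 of the 18 with H3K9me3 can have been active enhancer-like, so they say little about H3K9me3 in that class. The excess of active enhancer-like intervals was absent among the strong peaks, at 3.08% and 3.47%. Other directions turned as well: the H3K4me1 difference was -7.13 percentage points, and the intervals on H3K36me3 were wider by a ratio of medians of 1.65 and stronger in BRD2 fold enrichment by 1.28. Among promoter-like intervals alone the BRD2 ratio was then 1.77.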

How the data were processed

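ChIP-seq peak lists of 11 targets, 2 libraries each, were used as deposited, with BWA, MACS2 and hg19 named in the submitters' processing notes; versions and settings are not given in the sources used here. In the deposited lists the fold enrichment is the authors' ratio of a peak to its local background. The deposited −log10 p and −log10 q are those of the peak caller. The deposited score played no part, and the offset column gave each summit's place. Peaks were called per library. The second H3K9me3 library carries another number in its description than in its title, and the title was followed.

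The members, classes and lists were chosen with earlier results of these data known. Peaks of both lists of a target were intersected; at least 1 bp of overlap counted. A mark was present when called in both lists. Flanks were 10 kb on either side, a side being covered at 50%. Medians and Wilson intervals at 95% came from Python 3.11.15, numpy 2.4.6, pandas 2.3.3 and scipy 1.17.1, and plots from matplotlib 3.10.9. The functions were tested on simulated peak lists. Alternatives covered q, overlap, flank, width, loci and single lists.

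Regions named were the 5 best-ranked by BRD2 fold enrichment with and without H3K4me3, the 3 with the most flanking H3K36me3, the 3 best-ranked with H3K9me3 and 3 on either side of the rule's margin. Gene names and sequences were not used here, since no annotation of hg19 was at hand. Coordinates of the regions on chromosome 8 are not printed.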

Additional observations from a re-analysis of the deposited data

How the results depend on the processing

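Differences are shares on H3K36me3 minus shares at the other BRD2 intervals, in percentage points, and ratios are of medians. The main values were 407 intervals, -40.8 for H3K4me3, -4.81 for H4K5acK8ac, 27.4 for H3K4me1, 12.2 for H3K9me3, 30.9 for the active enhancer-like share, 20.2 for flanking H3K36me3, and ratios of 0.776 for width and 0.783 for BRD2 fold enrichment (mean of the lists). The lists used here give no read numbers, so depth could not be set equal. H3K4me3 and H4K5acK8ac stayed lower in all alternatives run, the acetyl fold ratios of H4K5acK8ac stayed above 1 in both classes, and the H3K4me3 width ratio stayed between 1.63 and 2.08.

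At a −log10 q of at least 1.3 in every list there were 225 intervals, with -34.8 for H3K4me3, -1.69 for H4K5acK8ac, 25.4 for active enhancer-like, 16.2 for flanking H3K36me3, a width ratio of 0.989 and a promoter-like BRD2 ratio that turned to 1.00. With BRD2 and H3K36me3 peaks held to a −log10 q of 5 or more there were 65 intervals, with -19.1 for H3K4me3, -2.24 for H4K5acK8ac, 26.2 for H3K9me3 and 9.70 for flanking H3K36me3. There the directions of H3K4me1 (-7.13), active enhancer-like (-0.388), width (1.65) and BRD2 fold enrichment (1.28, and 1.77 for promoter-like) turned. Few weak peaks remain under this setting; the cause was not tested.

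With H3K36me3 of either list there were 681 intervals, with -45.9 for H3K4me3, -3.79 for H4K5acK8ac, 8.97 for H3K9me3, 37.2 for active enhancer-like and 20.5 for flanks. With at least 50% of the interval covered the values were -47.3, -7.10, 15.7, 34.9 and 20.4, and with the BRD2 summit inside H3K36me3 they were -50.6 for H3K4me3, -6.63 for H4K5acK8ac, 37.6 for active enhancer-like and 19.5 for flanks. A mark in at least 1 list gave 17.2 for H3K9me3, 33.9 for active enhancer-like and -0.947 for H4K8ac, which turned. Within width classes H3K4me3 was -38.7, H4K5acK8ac -4.19 and active enhancer-like 29.7. Flanks of 5 kb and 50 kb gave 26.9 and 10.9, and the width of the deposited peaks a ratio of 0.936.

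Alternatives added after seeing the data were these. Each locus counted once gave 260 intervals, -8.23 for H4K5acK8ac, 28.4 for active enhancer-like and 19.6 for flanks. BRD2 intervals of at least 50 bp gave -2.63 for H4K5acK8ac and 19.5 for flanks. Without BRD2 intervals with H3K9me3, H3K4me3 was -36.3, H4K5acK8ac -5.55, flanks 23.2 and H3K27me3 -0.362, which turned.

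Leaving out either replicate, so that one list per target decides, put 3195 to 4708 BRD2 peaks on H3K36me3, from lists of 45730 and 56830. The ranges were -32.7 to -23.4 for H3K4me3, -20.4 to -16.8 for H4K5acK8ac, 6.74 to 10.9 for H3K4me1, -0.292 to 5.96 for H3K9me3, 9.91 to 21.0 for active enhancer-like, 38.3 to 45.5 for flanks, 0.835 to 0.938 for width and 0.897 to 0.941 for BRD2 fold enrichment. H3K27me3 turned in both (-7.80 to -6.13). H3K27ac (-9.33 to 0.562) and H4K8ac (-14.5 to 1.04) turned without replicate 2. The replicate block, the mean over the 2 numbers, gave 3951.5 intervals, -28.0 for H3K4me3, -18.6 for H4K5acK8ac, 8.83 for H3K4me1, 2.83 for H3K9me3, 15.4 for active enhancer-like, 41.9 for flanks, a BRD2 ratio of 0.919, and reversed H3K27me3 (-6.96) and H4K8ac (-6.74). Over 55 pairs of targets, the correlation of their deviations in 100 kb bins ran from -0.241 to 0.354, with 2 pairs above 0.1. Whether libraries of the same number were made together is not in the labels, and correlations of peak lists cannot decide it.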
